A study of Mus musculus with 12 samples.

Results

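AMPA and kainate receptors are ion channels that open when they bind glutamate. *Gria1* to *Gria4* encode the 4 AMPA receptor subunits, and *Grik1* to *Grik5* encode the 5 kainate receptor subunits. These 9 genes were chosen by name. In all, 17744 gene names had an m6A peak in the hippocampus of WT or Tyrobp KO mice, and 8 of the 9 were among them. The 9 genes held 18 of the 33622 peaks of WT mice and 22 of the 34935 peaks of Tyrobp KO mice. Peaks were listed under 8 of the 9 names in each genotype, and 0 peaks were listed under *Grik4*.

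Each receptor channel is assembled from 4 subunits. AMPA receptors carry most of the fast excitatory current between hippocampal neurons, and their number at a synapse is adjusted when the synapse is strengthened or weakened. Kainate receptors are found on both sides of the synapse, where they tune transmitter release and excitability. N6-methyladenosine (m6A) is a methyl mark on adenosines of RNA. It is written by a complex around METTL3 and METTL14, lies most often near stop codons and in 3′ UTRs of mRNA, and is known to affect the stability and translation of transcripts.

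In MeRIP-seq, RNA fragments are precipitated with an antibody against m6A (the IP library) and sequenced beside the same RNA without precipitation (the input library). Hippocampi came from mice on a C57BL/6 background aged 6 months, either WT or Tyrobp-/- (Tyrobp KO, which lack a signaling adaptor of microglia). According to the methods of the study, the KO strain carries a small deletion in an exon of Tyrobp made with TALENs, all mice were male and the WT mice were littermates. Each genotype had 3 samples, each pooled from 3 mice, and each sample gave 1 IP and 1 input library, for 12 libraries in all.

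The libraries held 61189368 to 73554506 valid reads. The authors called peaks on the 3 samples of a genotype together, so each peak has 1 value for each genotype in these lists, with no replicate error. No test between genotypes was run on these values, and the authors' own test, deposited in a table of its own, was not used. Every difference below is a description of these pooled values. The IP libraries had a GC content of 49.16% to 50.24% in WT mice and of 48.46% to 49.33% in Tyrobp KO mice, and its part in the differences below was not tested. In both genotypes a peak was listed for all 4 neuronal markers, all 5 markers of hippocampal principal cells, all 4 astrocyte, all 5 microglial and all 4 oligodendrocyte markers. Of their matched pairs, 3 of 9 oligodendrocyte pairs were at least 2-fold higher in Tyrobp KO mice. These were *Mag* at a log2 ratio of 1.35 and *Mbp* at 1.03 and 1.02, but the peaks of the last pair shared only 1 bp. At least 2-fold lower were 1 of 13 microglial pairs (*Csf1r*, -1.08) and 1 of 10 hippocampal pairs (*Neurod6*, -1.37). Of all matched pairs, 7.25% were at least 2-fold higher and 6.40% at least 2-fold lower in Tyrobp KO mice. Of the 4 neuronal and 6 astrocyte pairs, 0 were past 2-fold, and the part of these differences in the results below was not tested. Of 5 markers of hypothalamic neurons, 2 had a peak in WT mice and 0 in Tyrobp KO mice. Of the 17744 gene names with a peak in either genotype, 15781 had one in WT mice and 16146 in Tyrobp KO mice. *Pmch* and *Hcrt*, 2 of these 5 markers, had no peak in either genotype. The paper lists both among its top 5 genes upregulated in Tyrobp KO mice, and the source of this difference was not tested. A peak list shows that a transcript was captured, not its level, so input RNA levels of the receptor genes are not given here. In whole hippocampus, a different share of cells of a type and a different state of their RNA cannot be told apart.

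Fold enrichment is the ratio of IP over input in a peak, and it had a median of 5.54 over all WT peaks and of 5.72 over all Tyrobp KO peaks. The peaks of the 9 receptor genes had a median of 7.73 in WT mice and of 7.15 in Tyrobp KO mice, with ranges of 1.57 to 26.7 and 1.67 to 19.9. Of these peaks, 16 of 18 in WT and 17 of 22 in Tyrobp KO mice reached a peak-calling FDR below 1e-5, or 88.9% and 77.3%, against 64.4% and 63.3% of all peaks. The AMPA receptor genes had 7 peaks in WT and 11 in Tyrobp KO mice, and the kainate receptor genes had 11 in each genotype. Counting only peaks with a fold enrichment of at least 4, each genotype had 13 peaks of the 9 genes, with 6 in the AMPA and 7 in the kainate genes. Over all peaks, 21250 of 33622 in WT and 22476 of 34935 in Tyrobp KO mice were this enriched. The receptor share was above that of all peaks in WT mice and below it in Tyrobp KO mice. The peaks of the receptor genes covered 12344 bp of exons in WT mice and 12708 bp in Tyrobp KO mice. Their median enrichment, though not that of every peak, thus lay above the median of all peaks in both genotypes. The exonic length covered was similar in both.

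**Figure D1:**
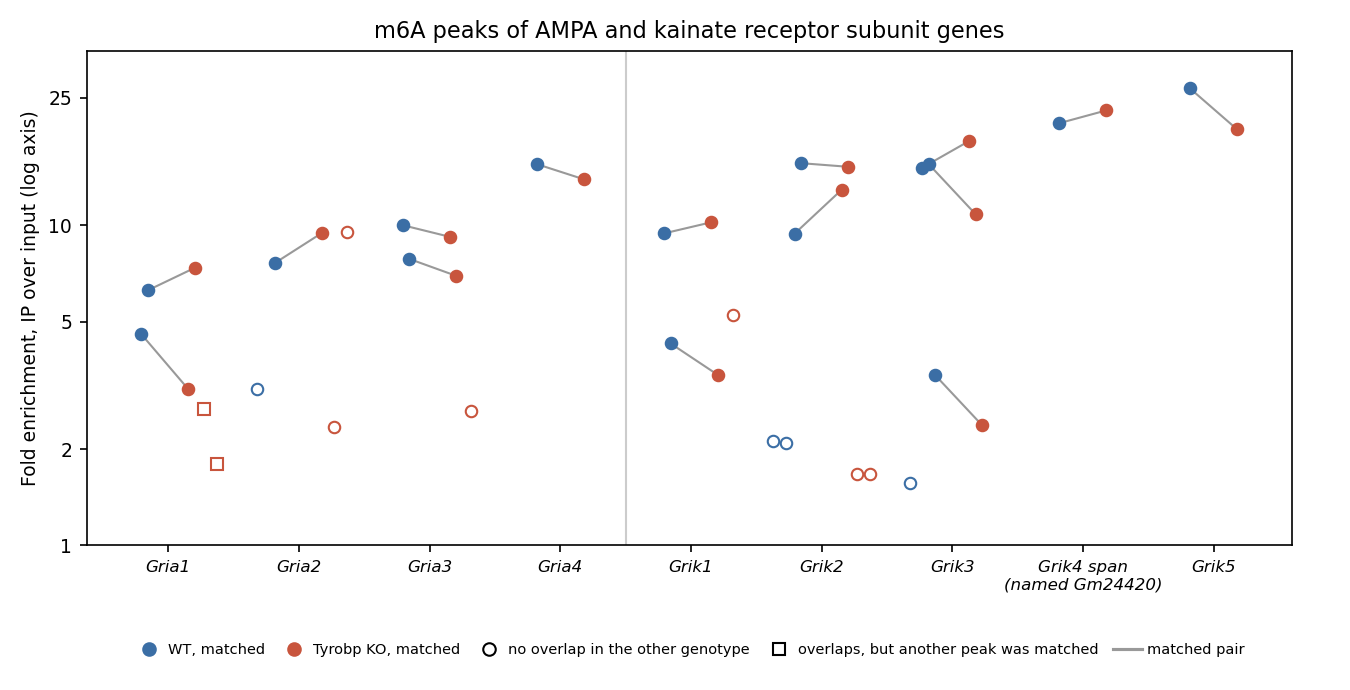
Fold enrichment (IP over input, log axis) of every peak of the 9 receptor genes in WT (blue) and Tyrobp KO mice (red). Lines join matched peaks, open circles are peaks without overlap in the other genotype, and squares are the Gria1 peaks that overlap a WT peak matched elsewhere. Each point is 1 pooled value without an error. Grik5 lies highest in WT mice at 26.7, and the points of Grik4 are the peaks listed under Gm24420.

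Most of these peaks lay in 3′ UTRs. The authors' annotation placed 13 of 18 WT peaks there (72.2%, exact 95% binomial interval 46.5% to 90.3%) and 16 of 22 Tyrobp KO peaks (72.7%, 49.8% to 89.3%). Over all peaks the shares were 47.2% and 49.3%. The 5′ UTR held 2 of the 18 and 3 of the 22 peaks, other exons held 3 in each genotype, and first exons held 0 in each. These intervals cover counting error only, and peaks of 1 gene share a transcript. The 3′ UTR share was 4 of 7 WT and 8 of 11 Tyrobp KO peaks for the AMPA genes, and 9 of 11 and 8 of 11 for the kainate genes.

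*Gria1* encodes GluA1, the subunit whose insertion at synapses is best known from long-term potentiation. Its gene spans chromosome 11 from 57011571 to 57330244 (GRCm38, forward strand). In WT mice a single 3′ UTR peak ran over 2753 bp, from 57327492 to 57330244, up to the RefSeq gene end. Its fold enrichment was 6.26 with a log10 p of -4560 for IP against input, which ranked 87 by p among the 33622 WT peaks. In Tyrobp KO mice the same stretch held 3 peaks. The peak next to the gene end was 1676 bp long with a fold enrichment of 7.36 and a log10 p of -5460, the one in the middle was 180 bp long with 1.79, and the one furthest from the gene end was 450 bp long with 2.67. The gaps between them were 268 and 119 bp, and together they covered 83.8% of the WT peak. Their mean fold enrichment weighted by length was 6.01, a log2 ratio over the WT peak of -0.06, against 0.23 for the matched peak at the gene end alone. Over all WT peaks, 3.62% were overlapped by 3 or more Tyrobp KO peaks and 17.5% by 2 or more.

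A second *Gria1* peak lay in the 5′ UTR, and it had the largest difference between genotypes among the receptor genes. Its fold enrichment was 4.56 over 270 exonic bp in WT mice and 3.07 over 210 bp in Tyrobp KO mice, a log2 ratio of -0.57, or 1.49-fold lower in Tyrobp KO mice. Of all matched pairs, 14.0% had a lower ratio. Both peaks ended at the same position, 57012002, and the WT peak began further upstream, at 57011417 against 57011477.

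*Gria2* encodes GluA2, the subunit that makes AMPA receptors impermeable to calcium once its transcript has been edited. The gene lies on the reverse strand of chromosome 3 from 80681450 to 80804227. Its peak with the smallest p in each genotype ran from 80687890 to 80689207 in WT mice, covering 930 exonic bp with a fold enrichment of 7.63. In Tyrobp KO mice it covered 870 bp with 9.47, a log2 ratio of 0.31. This peak was annotated as 3′ UTR but ended 6440 bp short of the RefSeq gene end. The same 825-bp block carried most of it in both genotypes. The log10 p was -4460 in WT and -3100 in Tyrobp KO mice, so the genotype with the higher enrichment had the larger p. WT mice had 1 further peak of 120 bp in the last exon of another transcript (fold enrichment 3.08, log10 p -21.2). Tyrobp KO mice had instead a 91-bp peak 419 bp from the gene end (2.35, log10 p -3.5) and a 61-bp peak in an exon (9.53, log10 p -2.14), which passed the peak call with little margin at a deposited p of 0.0072.

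*Gria3*, on the forward strand of chromosome X, encodes GluA3 and had a peak at each end of its transcript in both genotypes. The 5′ UTR peak had a fold enrichment of 9.99 in WT and 9.19 in Tyrobp KO mice, each over 210 exonic bp, a log2 ratio of -0.12. The 3′ UTR peak had 7.84 over 480 bp in WT mice and 6.94 over 540 bp in Tyrobp KO mice, a log2 ratio of -0.18. Both genotypes thus had higher enrichment at the 5′ than at the 3′ end of *Gria3*. For *Gria1* the order was the opposite. Tyrobp KO mice had 1 further *Gria3* peak of 61 bp at the gene end, with a fold enrichment of 2.62 and a log10 p of -16.9.

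*Gria4* encodes GluA4, which in the adult hippocampus is best known from interneurons. It had 1 peak in each genotype and the highest fold enrichment of the AMPA genes, 15.5 over 1017 bp in WT mice and 13.9 over 1286 bp in Tyrobp KO mice (log2 ratio -0.16). The peak joined 3 exonic blocks, of which the blocks of 135 and 74 bp were the same in both genotypes. The block nearest the gene end was 808 bp long in WT and 1077 bp in Tyrobp KO mice, where it reached further towards the 3′ end.

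**Figure D2:**
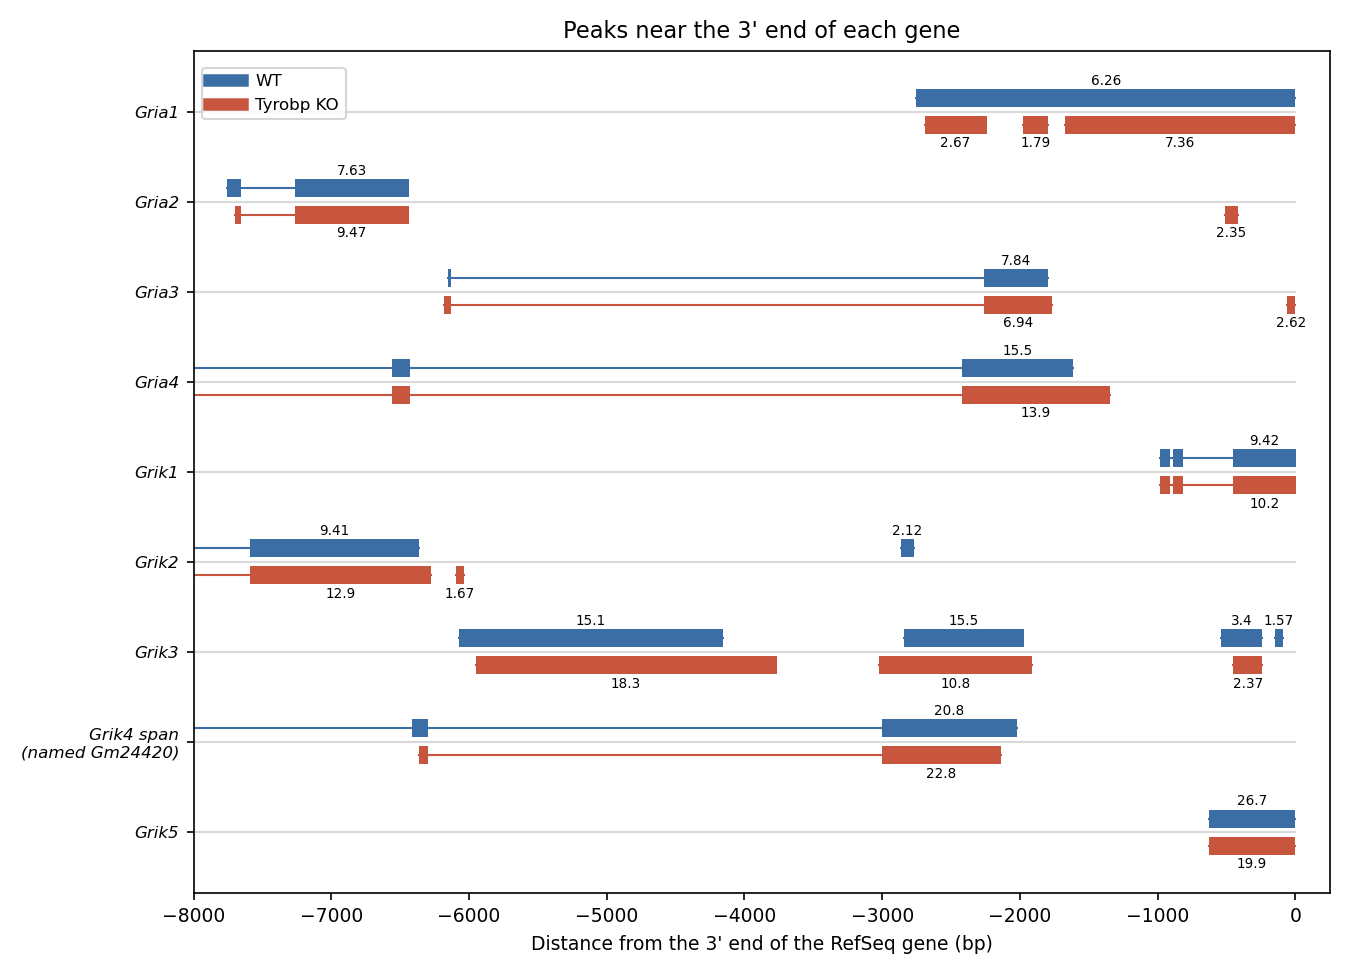
Peaks near the 3′ end of each receptor gene, by distance from the RefSeq gene end in bp (0 at the right), in WT (blue) and Tyrobp KO mice (red). Bars are exonic blocks to scale, thin lines join blocks of 1 peak across introns, and the numbers are fold enrichments. The single WT peak of Gria1 lies over 3 Tyrobp KO peaks, while Grik1 and Grik5 have the same edges in both genotypes.

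Among the kainate receptor genes, *Grik1* to *Grik3* encode the subunits that can form channels on their own (GluK1 to GluK3). *Grik4* and *Grik5* encode the high-affinity subunits GluK4 and GluK5, which need one of the former to form a working channel.

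*Grik1* lies on the reverse strand of chromosome 16. Its 3′ UTR peak had the same edges in both genotypes, 87895900 and 87896882, with 598 exonic bp in 3 blocks. The fold enrichment was 9.42 in WT and 10.2 in Tyrobp KO mice, a log2 ratio of 0.11. A small peak in exon 16 of 17 had 4.27 over 61 bp in WT mice and 3.41 over 121 bp in Tyrobp KO mice, and the peaks shared only 31 bp. A 180-bp exonic peak was listed only in Tyrobp KO mice, with a fold enrichment of 5.24 but a log10 p of -1.85.

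*Grik2*, on the reverse strand of chromosome 10 from 49093680 to 49790161, is the longest of the 9 genes at 696482 bp. Its main 3′ UTR peak had a fold enrichment of 9.41 over 1410 exonic bp in WT mice and of 12.9 over 1500 bp in Tyrobp KO mice. The log2 ratio of 0.46 was the highest among the receptor genes, and 78.2% of all matched pairs had a lower ratio. A second peak annotated as 3′ UTR lay in the middle of the gene, 401878 bp from its end, and had 15.6 in WT and 15.2 in Tyrobp KO mice. Its enrichment exceeded that of the main peak, yet its log10 p was only -6.16 in WT and -4.54 in Tyrobp KO mice, against -701 and -816 for the main peak. A further 4 small peaks were listed in 1 genotype only. In WT mice these were a 91-bp peak in the 3′ UTR (2.12) and a 61-bp peak in exon 16 of 17 (2.09), and in Tyrobp KO mice a 61-bp peak in the 3′ UTR and one of the same length in the 5′ UTR (1.67 each).

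*Grik3*, on the forward strand of chromosome 4, carried all its peaks in the 3′ UTR, 4 in WT and 3 in Tyrobp KO mice. They covered 3144 and 3503 exonic bp, the most of the 9 genes in both genotypes. From 5′ to 3′, the first matched peak had a fold enrichment of 15.1 in WT and 18.3 in Tyrobp KO mice, the second had 15.5 and 10.8, and the third had 3.4 and 2.37. The log2 ratios were 0.28, -0.52 and -0.52, so neighboring peaks of 1 UTR differed in the direction of the genotype difference. A further peak of 61 bp was listed only in WT mice (1.57, log10 p -2.02). The table of peaks that the authors deposited to compare the genotypes holds 5640 peaks in 4671 genes, and 1 of them belongs to the receptor genes. It is a 360-bp stretch of the *Grik3* 3′ UTR from 125713605 to 125713964, which takes in the third peak of both genotypes. The authors' test values for it are not used here.

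*Grik5*, on the reverse strand of chromosome 7, had 1 peak with the same edges in both genotypes, 25009849 and 25010476, and this 628-bp stretch reached the gene end. Its fold enrichment of 26.7 in WT and 19.9 in Tyrobp KO mice was the highest listed under any of the 9 names in each genotype. Of all peaks, 98.2% had a lower enrichment in WT and 95.7% in Tyrobp KO mice. The log2 ratio was -0.42, and 18.9% of all matched pairs had a lower ratio. Because the edges were the same, this difference does not involve a change in the bases covered.

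*Grik4* spans chromosome 9 from 42518182 to 42945000 on the reverse strand. Inside its span and on its strand, both genotypes had a peak listed under *Gm24420*, a 59-bp gene at 42520773 to 42520831, and annotated as 3′ UTR. In WT mice this peak covered 1109 exonic bp with a fold enrichment of 20.8 and a log10 p of -959, and in Tyrobp KO mice 929 bp with 22.8 and -1200. The log2 ratio was 0.13. The exonic blocks of these peaks are longer than *Gm24420* itself, so 0 peaks under the name *Grik4* does not show that its transcript had none. Among all peaks annotated to a numbered exon, 15.3% in WT and 15.7% in Tyrobp KO mice named an exon of another gene than the one they were listed under.

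Of the 18 WT peaks, 14 could be matched with an overlapping Tyrobp KO peak, each peak being used once. None of the 14 pairs differed by 2-fold or more in either direction, whereas 7.25% of all 25087 matched pairs were at least 2-fold higher and 6.40% at least 2-fold lower in Tyrobp KO mice. At 1.5-fold, 0 of the 14 pairs were past the threshold, and of all pairs 16.4% were higher and 13.7% lower. With both peaks of a pair at an FDR below 1e-5, which 13 of the 14 receptor pairs met, the share of all pairs past 2-fold in either direction was 8.52%, against 13.7% without this filter, and 0 of the 13 were past it. After subtraction of the median of all pairs, 1 of the 14 pairs, the *Gria1* 5′ UTR pair, was past 1.5-fold. A replicated test cannot be run on these pooled values, so 0 pairs past the threshold does not show that methylation was equal.

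The log2 ratios of the 14 pairs ran from -0.57 to 0.46, with a median of -0.14 (quartiles -0.40 and 0.20), and 9 were below 0. Over all pairs the median was 0.05 (quartiles -0.29 and 0.39), and 53.5% were above 0. The median was -0.14 for the 6 AMPA pairs and -0.18 for the 8 kainate pairs. The 3 pairs outside 3′ UTRs, in *Gria1*, *Gria3* and *Grik1*, were all below 0 with a median of -0.32. The 11 pairs in 3′ UTRs divided into 5 above and 6 below 0 with a median of -0.04. With only the pair of largest shared span taken for each gene, 5 genes were above and 3 below 0 and the median was 0.17, so the sign of the median depended on which pairs were counted.

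**Figure D3:**
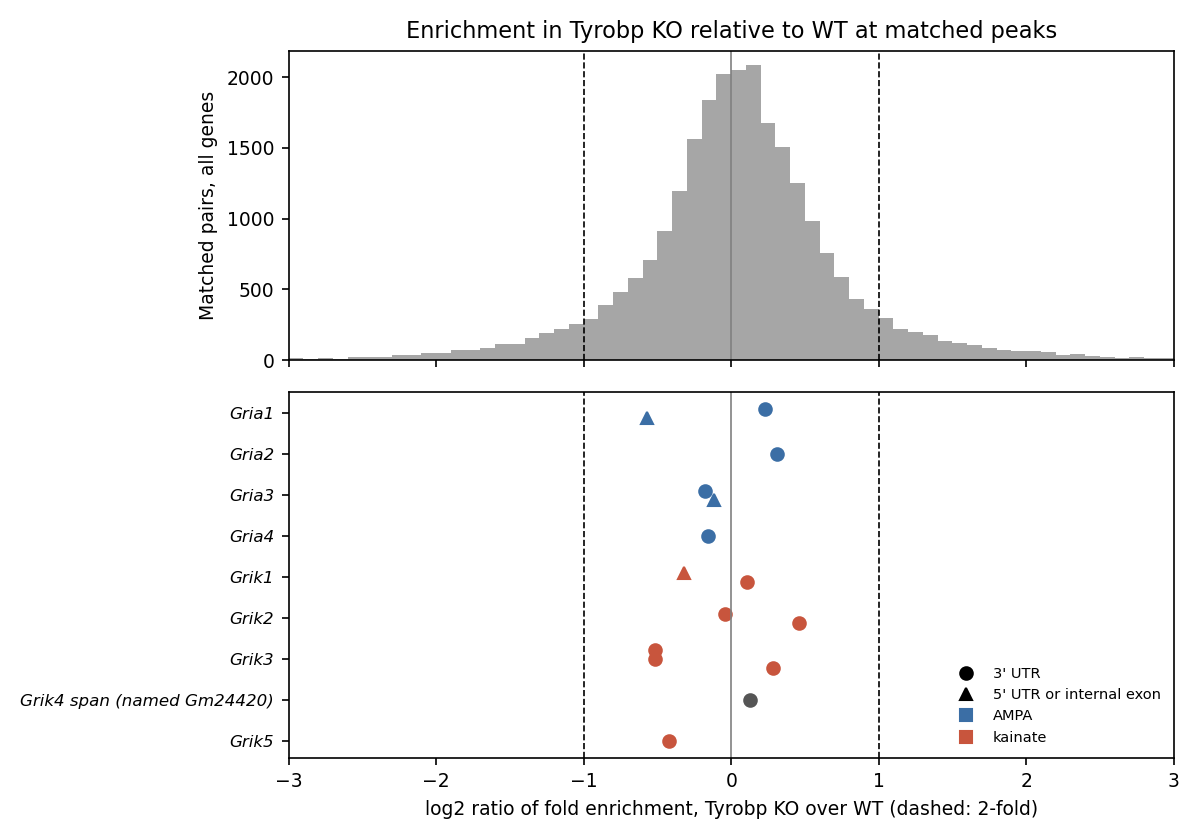
Log2 ratio of fold enrichment, Tyrobp KO over WT, for all 25087 matched pairs (histogram, x axis limited to -3 to 3) and for the 14 pairs of the receptor genes with the Gm24420 pair in Grik4 (points, 1 row for each gene). No receptor pair lies past 2-fold, a log2 ratio of 1 or -1, and the points of Grik3 lie on both sides of 0.

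Fold enrichment refers to the bases each peak covers, and matched peaks seldom had the same edges. This was the case in 2 of the 14 receptor pairs, *Grik1* and *Grik5*, and in 8.55% of all pairs. The Tyrobp KO peak was shorter in exonic length in 5 receptor pairs, longer in 6 and of the same length in 3. Over all pairs the length moved with the ratio. The Tyrobp KO peak was the shorter one in 43.2% of all pairs, in 74.4% of pairs at least 2-fold lower and in 19.2% of pairs at least 2-fold higher in Tyrobp KO mice.

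Peaks found in 1 genotype only were short and, apart from 2, weakly enriched. Such peaks made up 4 of the 18 WT and 6 of the 22 Tyrobp KO peaks of the receptor genes, where 20.0% of all WT peaks overlapped no Tyrobp KO peak and 22.1% of all Tyrobp KO peaks overlapped no WT peak. The 4 WT peaks were 61 to 120 bp long with fold enrichments of 1.57 to 3.08. The 6 Tyrobp KO peaks were 61 to 180 bp long with 1.67 to 9.53, and the values above 5 belonged to the *Gria2* and *Grik1* exonic peaks, whose log10 p was -2.14 and -1.85. Receptor peaks with an overlap in the other genotype had a median of 613 exonic bp in WT and 569 bp in Tyrobp KO mice, and a median fold enrichment of 9.41 and 9.33. At an FDR below 1e-5 in both lists, 3 of 16 WT and 2 of 17 Tyrobp KO peaks of these genes had no overlap in the other genotype. The 3 WT peaks include the 571-bp *Grik2* peak with a fold enrichment of 15.6, whose Tyrobp KO match did not reach this FDR. No share over all peaks is given at this cut, so these counts cannot be set against one.

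**Figure D4:**
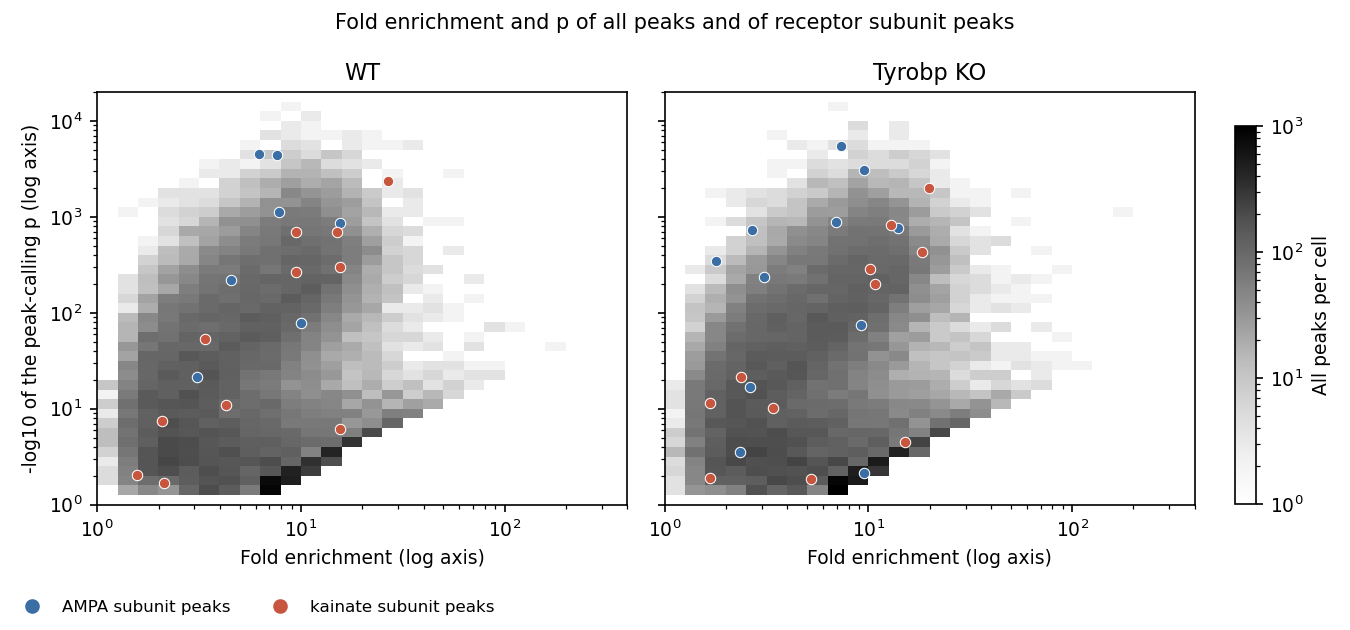
Fold enrichment against the size of the log10 p for IP against input (both axes logarithmic), for all peaks (grey cells, darker with more peaks) and for the peaks of AMPA (blue) and kainate genes (red), with the WT and the Tyrobp KO list in a panel each. Gria1 and Gria2 have the smallest p of the receptor genes and Grik5 the highest enrichment, and a few peaks of high enrichment have a p near the threshold. Not shown are 3 WT and 4 Tyrobp KO peaks listed at a log10 p of minus infinity, and the Tyrobp KO peak of highest enrichment, 1010.

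The order by fold enrichment and the order by p differed among the receptor genes. *Gria1* and *Gria2* had 3′ UTR peaks of moderate enrichment with ranks 87 and 92 by p among all WT peaks, and ranks 50 and 139 among all Tyrobp KO peaks. *Grik5* had the highest enrichment and ranked 274 and 306. For a given enrichment, p becomes smaller with the number of reads in a peak, and reads per peak are not among the values used here.

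The proteins that accompany the receptors were examined in 5 lists chosen from general knowledge. Of 15 genes for AMPA receptor auxiliary subunits, 14 had a peak in WT and 15 in Tyrobp KO mice. These proteins, among them the TARPs, the cornichons and the SHISA family, set the gating and surface number of AMPA receptors. Their highest fold enrichment was 21.8 for the TARP gene *Cacng2* in WT mice and 19.3 for the cornichon gene *Cnih3* in Tyrobp KO mice. The median log2 ratio of their 24 matched pairs was -0.01, and 2 pairs were past 2-fold. Of all matched pairs in the series, 13.7% were past 2-fold in either direction. The 5′ UTR peak of the TARP gene *Cacng8* had 11.7 over 1247 bp in WT and 3.47 over 742 bp in Tyrobp KO mice, a log2 ratio of -1.75. The first-exon peak of *Shisa7* had 4.23 over 120 bp and 10.5 over 60 bp, a log2 ratio of 1.31. *Cnih2* had a peak only in Tyrobp KO mice. Of the 17744 gene names with a peak in either genotype, 15781 had one in WT and 16146 in Tyrobp KO mice.

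Of 6 genes for factors of AMPA receptor assembly and early transport, 5 had a peak in WT mice and 6 in Tyrobp KO mice, and *Porcn* was the one without in WT mice. Their highest values were 9.57 for *Abhd6* in WT and 9.77 for *Cpt1c* in Tyrobp KO mice, and 0 of 5 pairs were past 2-fold. All 4 genes for kainate receptor auxiliary subunits and ligands had peaks in both genotypes. *Neto2*, whose product slows the decay of kainate receptor currents, was highest at 14.6 in WT and 14.5 in Tyrobp KO mice. The 3′ UTR peak of its relative *Neto1* was the 1 of 7 pairs past 2-fold, where 13.7% of all pairs were. It had 6.05 over 1348 bp in WT and 3.01 over 271 bp in Tyrobp KO mice, a log2 ratio of -1.01.

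Of 15 genes for trafficking partners, 11 had a peak in WT and 12 in Tyrobp KO mice, and *Sdcbp*, *Nptx1* and *Eps8* had none in either. The median log2 ratio of 19 pairs was -0.03. Of these, 1 was at least 2-fold higher and 1 at least 2-fold lower in Tyrobp KO mice, where 7.25% and 6.40% of all pairs were. *Epb41l1*, which links GluA1 to the actin cytoskeleton, had the highest fold enrichment of the list, 19.9 in WT and 20.1 in Tyrobp KO mice. One of its pairs was also the furthest from 0 of all related genes, at a log2 ratio of -2.95. This pair had 19.9 over 1618 exonic bp in WT mice and 2.58 over 330 bp in Tyrobp KO mice. Its WT peak began at 156521357 and its Tyrobp KO peak at 156522705. The other *Epb41l1* pair had a log2 ratio of 0.23, and the part of peak length in these ratios was not tested. *Klhl24*, a kainate receptor interacting protein, had a 5′ UTR peak of 2.52 in WT and 5.72 in Tyrobp KO mice, a log2 ratio of 1.18.

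The 3 genes of the ADAR family all had peaks in both genotypes, with 14 peaks in WT and 8 in Tyrobp KO mice. The family includes the enzymes that edit the transcripts of GluA2 and some kainate subunits. *Adar* was highest in both genotypes, at 13.7 and 7.62. Its 5′ UTR peak had 13.7 over 600 bp in WT mice and 2.57 over 271 bp in Tyrobp KO mice, a log2 ratio of -2.41. The other 6 pairs were within 2-fold, and 13.7% of all pairs in the series were past it.

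Matching took the largest shared span whatever the gene name, and 2.73% of all pairs joined peaks of different names, but 0 of the 14 receptor pairs did. With matches allowed only within a gene name, a pair of *Grasp*, which encodes the scaffold protein tamalin, came past 2-fold with 4.5 in WT and 18.6 in Tyrobp KO mice (log2 ratio 2.05). In all 6 pairs of related genes past 2-fold in the main matching, the Tyrobp KO peak covered fewer exonic bases than the WT peak. For *Klhl24* the lengths were nearly the same, 211 bp in WT and 210 bp in Tyrobp KO mice. The *Shisa7* and *Klhl24* pairs were higher in Tyrobp KO mice all the same. Outside these 6, the *Grasp* pair went from 237 to 975 bp and the *Grin1* pair of the NMDA genes from 91 to 121 bp.

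**Figure D5:**
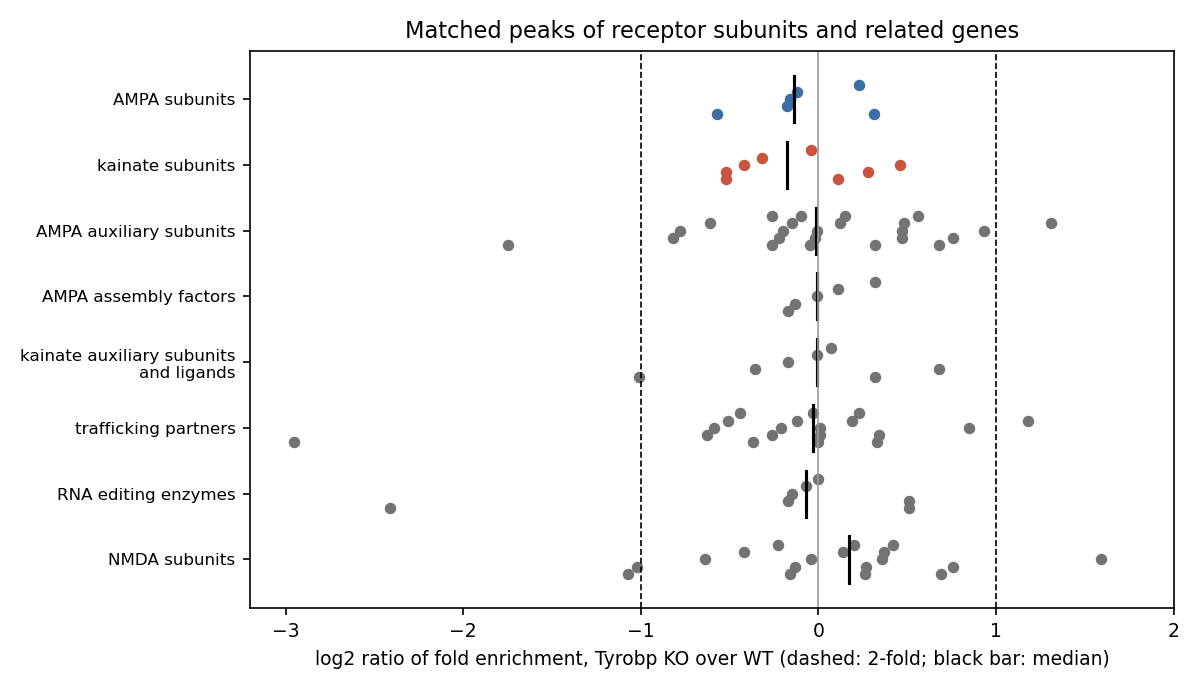
Log2 ratio of fold enrichment, Tyrobp KO over WT, of every matched pair of the AMPA and kainate receptor genes and of the lists of related genes (1 row for each list). The receptor pairs lie between -0.57 and 0.46, while single pairs such as those of Epb41l1 at -2.95 and Shisa7 at 1.31 lie past 2-fold. The other Epb41l1 pair lies at 0.23.

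The NMDA receptor genes, the third family of glutamate-gated channels, had 27 peaks in WT and 25 in Tyrobp KO mice in all 7 genes, with a median fold enrichment of 6.84 and 7.22. Of the 14 AMPA and kainate pairs, 0 were past 2-fold or 1.5-fold. Of the 18 matched NMDA pairs, 3 were past 2-fold and 6 past 1.5-fold. These shares were 16.7% and 33.3%, near the 13.7% and 30.1% of all matched pairs. Of the 3 NMDA pairs past 2-fold, 2 were *Grin2a* 5′ UTR peaks that overlapped each other, with log2 ratios of -1.02 and -1.07. The third was a *Grin1* pair at 1.59. The median log2 ratio of the 18 NMDA pairs was 0.17. The difference between the families was not tested, since the values have no replicate error.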

How the data were processed

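MeRIP-seq of hippocampal RNA from 6-month-old WT and Tyrobp KO mice was analysed from the processed files. The authors trimmed reads with fastp and aligned them by HISAT2 to GRCm38 (Ensembl v96). Peaks of the 3 IP over the 3 input libraries of a genotype were called jointly by exomePeak, and ChIPseeker gave their annotation. The labels also list HOMER. Tool versions are not given in the sources used here. The authors deposited, for each peak, a fold enrichment (the IP to input ratio), a p-value, log10 values of the p and FDR (a score here) and the position of its exonic blocks. They also deposited counts of valid reads and the GC percent of each library. The comparison table holds the authors' log2 fold change, p-value and FDR between genotypes, which were not used. Its entry rule is not stated in the paper's text. Groups were taken from the sample titles.

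Members were found by gene name. WT and Tyrobp KO peaks were matched when their genomic spans shared at least 1 bp, each peak being used once in order of shared span, and the log2 ratio of fold enrichment was computed for each pair over all genes. A pair was counted as past the fold at 2, the threshold of the study. Shares have exact 95% binomial intervals (Clopper-Pearson). With 1 pooled value for each genotype no test was run, and the reads behind a peak are unknown. Gene ends were taken from RefSeq (GRCm38.p6). Members, gene lists and thresholds were chosen with earlier results of these data known. The genes named are all 9 members with every peak, the gene with the highest fold enrichment of each related list in each genotype and every related gene with a pair past 2-fold, while NMDA receptor genes and markers were to be given by counts and medians. *Gm24420*, *Grasp*, *Grin1*, *Grin2a*, the markers past 2-fold and the genes without a peak were named after their values were seen. Alternatives were another overlap, exonic blocks, the same gene name, centring, an FDR below 1e-5, lower folds, a fold enrichment of at least 4, and weighting by length. One related gene family is not reported here. No peak sequence is shown, since no genome sequence was at hand. Matching was checked on simulated peaks. The versions were Python 3.11.15, numpy 2.4.6, pandas 2.3.3, scipy 1.17.1 and matplotlib 3.10.9.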

Additional observations from a re-analysis of the deposited data

How the results depend on the processing

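The count of receptor pairs past 2-fold stayed at 0 in each direction under reciprocal overlap of 50%, overlap of exonic blocks, matching within a gene name, subtraction of the median of all pairs, an FDR below 1e-5 and inclusion of the *Gm24420* peaks. At a ratio of 5 to 4, 1 pair was higher and 5 were lower in Tyrobp KO mice, where 52.7% of all pairs were past that ratio in either direction. The median log2 ratio of -0.14 turned to 0.17 with 1 pair for each gene, and was -0.12 with the *Gm24420* pair, -0.12 with reciprocal overlap, -0.16 at an FDR below 1e-5 and -0.19 after subtraction of the median of all pairs. With a fold enrichment of at least 4, 13 of the 18 WT and 13 of the 22 Tyrobp KO peaks were left. Over all peaks, 21250 of 33622 and 22476 of 34935 were left. At an FDR below 1e-5, the Tyrobp KO peaks without a WT overlap went from 6 to 2, with no share over all peaks given at this cut. Weighted by exonic length, the 3′ UTR share was 94.2% in WT and 93.4% in Tyrobp KO mice. No weighted share over all peaks is given, and the 47.2% and 49.3% above are unweighted. A peak has 1 class for all its blocks, so blocks in other exons, such as those of 135 and 74 bp in *Gria4*, were counted as 3′ UTR. The matching within a gene name, the *Gm24420* peaks, the weighting of overlapping peaks by length and 1 pair for each gene were chosen after seeing the data.

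No paired analysis was possible because each peak has 1 value over the pooled replicates of a genotype. Replicates could not be left out for the same reason. The reads behind each peak are unknown, so the precision of a single ratio cannot be given.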

Other observations

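Peaks of other genes were listed inside the spans of 2 further receptor genes. *Gm48123*, on the opposite strand at the start of *Grik2*, had a first-exon peak with a fold enrichment of 8.79 in WT and of 9.53 in Tyrobp KO mice, at different positions and with log10 p of -1.93 and -2.14. *Mir692-2*, on the strand of *Grik3*, had a peak of 9.77 in WT mice with a log10 p of -2.19.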
